A study of Mus musculus with 20 samples.

Results

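The response of the mouse liver transcriptome to repeated cold was compared between wild type mice and mice lacking Sirt2, as the interaction of genotype and cold exposure (CE). All 20 of the 20 libraries of the series entered this contrast, each from a separate mouse, and the sample labels placed them in 4 groups of 5. Control mice were wild type C57BL/6 mice kept at a room temperature of 24 ± 2 °C, and CE mice were of the same strain and spent 3 h per day at 4 °C for 3 weeks, from 5 weeks of age. Sirt2-/- mice carried a whole-body knockout made by injecting a CRISPR-Cas9 ribonucleoprotein that removes exons 5 to 7 of Sirt2, on the same C57BL/6 background, and Sirt2-/-/CE mice carried the same deletion and received the same cold. The study's methods state that the mice of an experiment shared 1 sex without naming it, and the number of founders behind the knockout line is not given in the sources used here. The cold response of wild type mice is CE against Control, the cold response of knockout mice is Sirt2-/-/CE against Sirt2-/-, and the interaction is the second minus the first, on the log2 scale. A positive interaction thus means that the level in cold relative to room temperature was higher in knockout than in wild type mice, and a negative one that it was lower.

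Sirt2 is an NAD-dependent deacetylase found mainly in the cytosol, where it removes acetyl groups from tubulin and from several metabolic enzymes, and it belongs to the sirtuin family of nutrient sensors. In mammals repeated cold raises heat production in brown fat and muscle, and the liver serves that demand by handling the fatty acids, glucose and lipoproteins that those tissues burn. Liver cells also secrete most plasma proteins, so the folding machinery of their endoplasmic reticulum (ER) is known to adjust to the load of protein that passes through it.

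The number of reads counted on genes was 35499796 to 53917339 per mouse, and 15616 genes passed a filter on low counts. Levels are given as CPM, each mouse's counts scaled to the same total with edgeR's TMM factors, which allows one gene to be compared between mice but not one gene with another. Hepatocyte genes were high in every library, with Alb, the gene of serum albumin, at 28600 to 63300 FPKM, a unit scaled to gene length. The Kupffer cell gene Clec4f ranged from 11.7 to 55 FPKM, and the adipocyte genes Adipoq and Plin1 and the muscle gene Ckm did not exceed 0.132 FPKM in any mouse. The adipocyte gene Cfd reached 1.01 FPKM in Control mouse 2, and the pancreas gene Cela2a reached 8.1 FPKM in Sirt2-/- mouse 14. Some mice stood apart from their group, and results that rest on them are given with and without them. The median centred log2 level of short genes minus that of long genes was 1.09 in Sirt2-/-/CE mouse 16. It was 0.57 in Sirt2-/- mouse 14 and 0.38 in Sirt2-/-/CE mouse 20, against -0.44 to 0.28 in the other 17. A score of clock genes, whose levels vary over the day, was -5.72 and -6.48 in Sirt2-/- mice 14 and 15, -4.52 in CE mouse 9 and -4.69 in Sirt2-/-/CE mouse 19, and lay between -0.81 and 3.36 in the other 16. In whole tissue, fewer cells of a type and less RNA per cell cannot be told apart.

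Sirt2 itself (ENSMUSG00000015149, chromosome 7 from 28766735 to 28788661 in the GRCm38 build, to which the mm10 coordinates of the submitters correspond) was examined first. Its level was 42.4, 41.6, 44.5, 41.3 and 41.5 CPM in Control, 43.4, 45.2, 56.2, 40.2 and 48 CPM in CE, 17.3, 21.3, 26.6, 27.5 and 16.9 CPM in Sirt2-/-, and 27.5, 19.4, 20.9, 19 and 21.1 CPM in Sirt2-/-/CE mice. Every knockout library was below every wild type library, as the labels have it, and the reads that remained were counted over the whole gene, of which exons 5 to 7 are a part. Cold did not separate the groups of either genotype: the log2 fold change was 0.14 in wild type and -0.03 in knockout mice, and the interaction was -0.17 (95% interval -0.60 to 0.26), with an unadjusted p of 0.426 in edgeR's quasi-likelihood test.

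No gene passed the interaction test after adjustment over all genes, and the genes that came nearest mostly had cold responses of opposite sign in the 2 genotypes. By edgeR's quasi-likelihood test with Benjamini-Hochberg adjustment, 0 of 15616 genes (0%) had an adjusted p under 0.05, and the lowest adjusted p was 0.208, shared by 15 genes. At an unadjusted p under 0.05, 1303 genes (8.34%) were counted, of which 739 (4.73%) had a positive and 564 (3.61%) a negative interaction. DESeq2 called 41 genes on the same counts, 32 positive and 9 negative, and all 41 were among the 1303 with the same sign. The limma voom method and limma on log2(FPKM + 1) called 0 genes each, with lowest adjusted p-values of 0.0573 and 0.0732. With edgeR, leaving out Control mouse 4 gave 2 calls, Soat2 at 1.92 (adjusted p = 0.0353) and Acnat2 at -4.17 (adjusted p = 0.0476), and leaving out any other single mouse gave 0. The unadjusted count then ranged from 973 (without Sirt2-/- mouse 15) to 1658 (without Control mouse 4).

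The median standard error of an interaction over all genes was 0.38 on the log2 scale, and the 95% interval reached less than 1 to each side in 62.5% of genes. Taken apart, the cold response gave 1 call in wild type mice (0.0064% of the genes tested, the predicted gene 3110082I17Rik) and 0 in knockout mice (0%), with 1674 (10.7%) and 1132 (7.25%) genes at an unadjusted p under 0.05. DESeq2 called 169 and 7 genes, respectively, and edgeR called 68 genes in wild type mice without Control mouse 4. Across the 15616 genes, which are not independent replicates, the responses of the 2 genotypes had a Pearson correlation of 0.014 and a Spearman correlation of 0.031. Of 150 genes at an unadjusted p under 0.05 in both responses, 60 had opposite signs and 90 the same sign.

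Among the 1303 genes with an unadjusted p under 0.05, 1190 (91.3%) had responses of opposite sign, against 48.6% of all genes, which is in part how the genes were chosen, since the interaction is the difference of both responses. Of these, 682 had a negative response in wild type and a positive one in knockout mice, and 508 the reverse. For the 739 genes with a positive interaction, the Control group had the highest mean in 445 and Sirt2-/-/CE in 289, while Sirt2-/- had the lowest mean in 472. For the 564 genes with a negative interaction, the Control group had the lowest mean in 462, and Sirt2-/- had the highest in 386. Over all tested genes, Control had the highest mean in 25.4% and the lowest in 28.9%, and Sirt2-/- the highest in 27.7% and the lowest in 26.4%. The sign of the interaction, by which these genes were chosen, favours such orders.

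**Figure D1:**
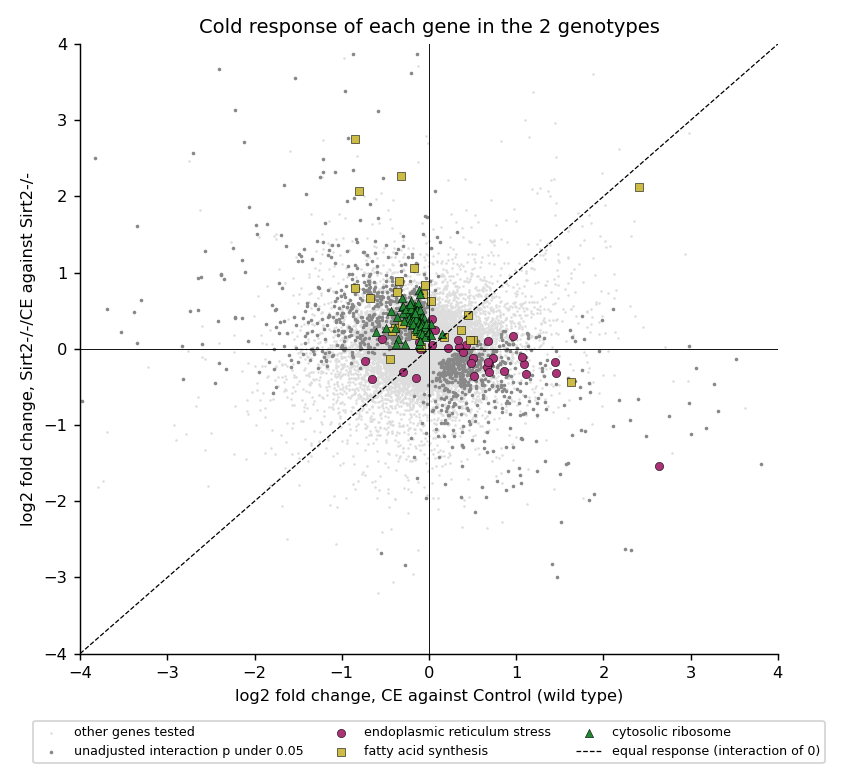
Log2 fold change of each tested gene with cold in wild type mice (x axis, CE against Control) and in knockout mice (y axis, Sirt2-/-/CE against Sirt2-/-), 5 mice per group, with axes that end at 4 and leave out 27 genes. Dark grey points are genes at an unadjusted interaction p under 0.05, larger symbols are members of 3 gene lists described in the text, and the dashed line marks equal responses: the dark grey points lie mostly in the upper left and lower right (1190 of 1303), most ER stress genes (circles) lie below the line and all ribosomal genes (triangles) above it.

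The 12 named genes with a positive interaction and the lowest p-values, among them Soat2, Pdk1, Gamt and Paox, all had the same pair of signs, with a negative response to cold in wild type and a positive response in knockout mice. In each of the 12 the Control group had the highest mean and the Sirt2-/- group the lowest. Soat2 (chromosome 15 from 102150526 to 102163469), which esterifies cholesterol for storage and secretion, was at 47.9, 40.5, 63.9, 17.2 and 31.5 CPM in Control, 18.4, 15.3, 24, 18 and 21.1 CPM in CE, 19.2, 16.9, 23.1, 18.2 and 11.5 CPM in Sirt2-/-, and 30.2, 26.4, 22.7, 26.7 and 35.2 CPM in Sirt2-/-/CE mice. Only Control mouse 4 was within the CE range, and Sirt2-/- and Sirt2-/-/CE mice overlapped by 1 mouse each. Its log2 fold change was -1.05 with cold in wild type and 0.67 in knockout mice, an interaction of 1.72 ± 0.36 (SE) with an unadjusted p of 0.000104 by edgeR (adjusted p = 0.208).

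Pdk1 (chromosome 2 from 71873224 to 71903858), a kinase that holds the pyruvate dehydrogenase complex inactive, was at 118, 95.1, 101, 61.6 and 83 CPM in Control and 59.5, 46.1, 34.3, 32.6 and 42.1 CPM in CE mice, without overlap. In Sirt2-/- mice Pdk1 was at 53.9, 38.2, 46.5, 26.1 and 27.8 CPM, and in Sirt2-/-/CE mice at 42.3, 57.2, 47.5, 50.1 and 87.3 CPM, with overlap. The interaction was 1.66 ± 0.34 (SE). Gamt (chromosome 10 from 80258151 to 80261012), which makes the last step of creatine synthesis, was at 149 to 194 CPM in Control and 67.9 to 120 CPM in CE, and at 29.7 to 79.8 CPM in Sirt2-/- and 65.3 to 200 CPM in Sirt2-/-/CE mice. The wild type groups of Gamt were apart and the knockout groups overlapped, and its interaction was 2.01 ± 0.44 (SE). Hyi (1.63 ± 0.31 SE), a hydroxypyruvate isomerase, had the lowest unadjusted p of these 12, 4.67e-05 by edgeR. The carboxylesterase Ces1e (1.77 ± 0.36 SE), the sulfotransferase Sult1b1 (1.44 ± 0.30 SE) and Fdx1 (1.41 ± 0.31 SE), which passes electrons to mitochondrial cytochromes P450, followed the same order of groups. The other positive genes were Haus7 (1.43), Dsg1c (3.31), Ebpl (1.13) and Ropn1l (1.28), and Dsg1c shares 29.6% of its 50-base words with other genes, mostly Dsg1a. The 474 genes whose CE and Control mice did not overlap were 3.04% of the genes tested. Of these 12 genes, 4 were among them.

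In 2 genes (0.0128% of the genes tested) the cold groups were apart from their room temperature groups in both genotypes and in opposite directions. Paox (chromosome 7 from 140115799 to 140137224), an oxidase that breaks down acetylated polyamines, was at 28.3, 29.2, 36.2, 28.5 and 26.5 CPM in Control, 21.4, 20.9, 12.5, 24.6 and 21.1 CPM in CE, 14.8, 15.4, 14.8, 11.5 and 10.6 CPM in Sirt2-/-, and 22.9, 17.7, 18.7, 16.4 and 27.4 CPM in Sirt2-/-/CE mice. Every CE mouse was below every Control mouse, and every Sirt2-/-/CE mouse was above every Sirt2-/- mouse. The interaction of Paox was 1.18 ± 0.25 (SE), with an unadjusted p of 0.000127 by edgeR, and it stayed between 1.06 and 1.27 when any 1 mouse was left out. Paox shares 28.1% of its 50-base words with other genes, mostly Gm19680, and 2.89% of its exon bases with Echs1 on the other strand. The second gene, Car3 (chromosome 3 from 14863512 to 14872523), encodes a carbonic anhydrase abundant in liver, muscle and fat, and was chosen after its values were seen. Car3 was at 2235 to 4220 CPM in Control, 202 to 2041 CPM in CE, 46.3 to 1541 CPM in Sirt2-/- and 1922 to 2620 CPM in Sirt2-/-/CE mice, with CE mouse 8 at 202 and Sirt2-/- mice 14 and 15 at 46.3 and 108. Its interaction was 2.40 ± 0.93 (SE), with an unadjusted p of 0.018 by edgeR. The Sirt2-/- and Sirt2-/-/CE mice were apart, in either direction, in 116 genes in all (0.743%), against 474 for the wild type groups.

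The 12 genes with a negative interaction all had a positive response to cold in wild type and a negative response in knockout mice, and in 11 of them the Control group had the lowest mean. Acnat2 (chromosome 4 from 49379840 to 49408151), a liver acyltransferase that conjugates fatty acids to amino acids, was at 5.7, 4.84, 6.83, 19.4 and 6.72 CPM in Control, 32.1, 57.7, 54.4, 41.9 and 58.5 CPM in CE, 16.5, 17.1, 24.6, 99.9 and 107 CPM in Sirt2-/-, and 25, 20.6, 21.3, 15.9 and 37.1 CPM in Sirt2-/-/CE mice. The wild type groups were apart, and in the knockout the 2 Sirt2-/- mice with the lowest clock score, 14 and 15, held the highest values. Its interaction was -3.64 ± 0.71 (SE), with an unadjusted p of 4.89e-05 by edgeR. It ranged from -4.17 to -3.23 when any 1 mouse was left out. Of its 50-base words, 31.5% occur in other genes, mostly Acnat1. Isyna1 (-1.98 ± 0.52 SE), which makes inositol phosphate from glucose phosphate, Rprd1a (-1.39 ± 0.31 SE), Fam107b (-0.94 ± 0.23 SE), Baiap2 (-1.47 ± 0.40 SE), Crebzf (-1.10 ± 0.29 SE), Armcx3 (-1.46 ± 0.40 SE), Hopx (-0.85 ± 0.23 SE) and the noncoding Ctcflos (-2.10 ± 0.46 SE) were also named. A few mice carried the values of the others. The kinesin gene Kif12 reached 75, 10.5 and 54.1 CPM in CE mice 7, 8 and 9 and was at most 1.99 CPM in the other 17 mice. Serpina7, the gene of thyroxine-binding globulin, was at 458 CPM in CE mouse 8 and at 117, 316 and 213 CPM in Sirt2-/- mice 13, 14 and 15, and between 21.7 and 85.2 CPM in the other 16. Its interaction of -3.81 lay between -4.09 and -2.24 when any 1 mouse was left out.

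**Figure D2:**
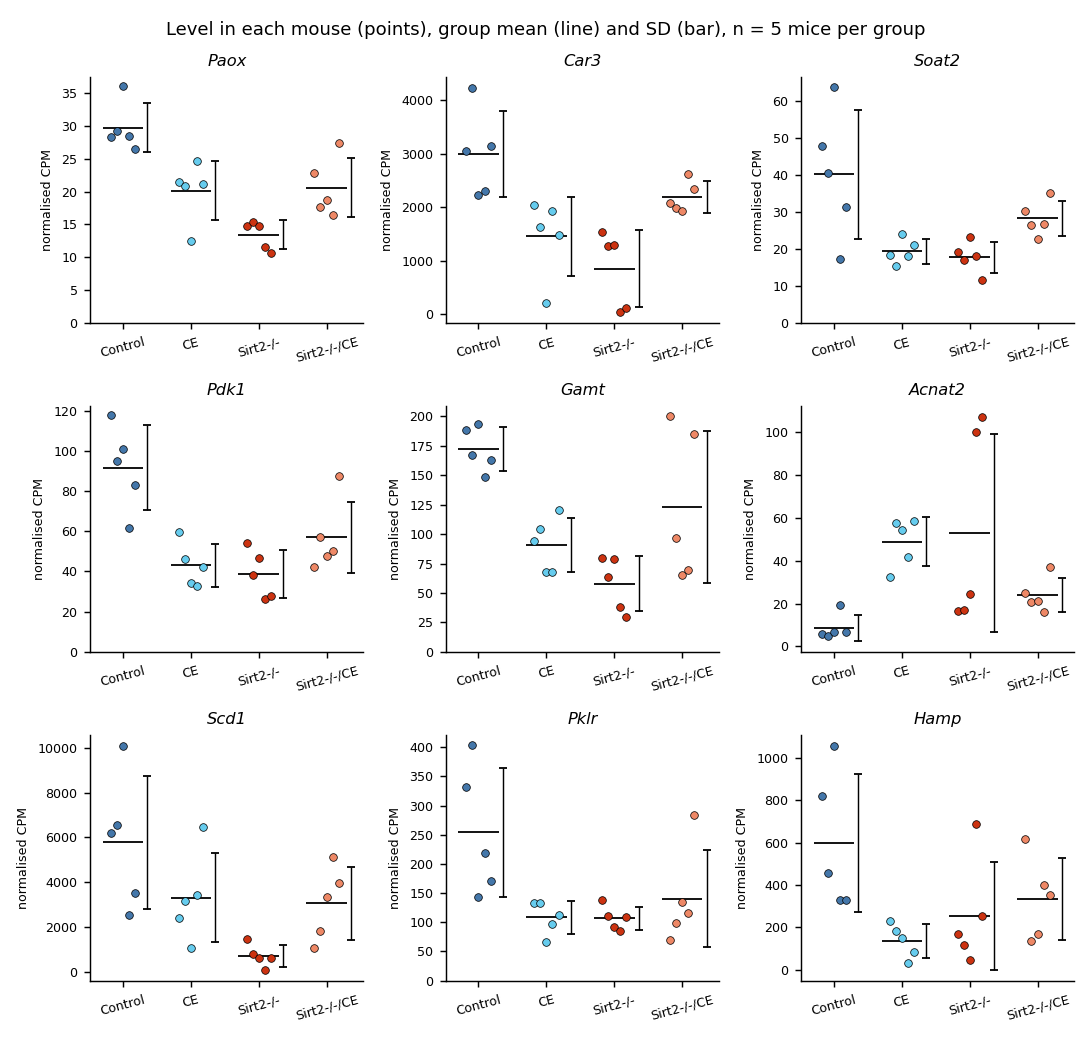
CPM of 9 genes in each mouse (points) with the group mean (line) and SD (bar beside it), in Control, CE, Sirt2-/- and Sirt2-/-/CE mice, 5 per group. In Paox and Car3 the CE points lie wholly below Control and the Sirt2-/-/CE points wholly above Sirt2-/-, while Acnat2 shows the reverse order in wild type mice.

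The ER stress genes formed the gene list with most negative interactions. ER chaperones fold secreted proteins, and when unfolded proteins pile up the sensors Ire1, Perk and Atf6 raise the genes of chaperones, disulfide isomerases and of the machinery that returns damaged proteins to the cytosol for degradation. Of the 32 members tested, 13 had an unadjusted p under 0.05 with a negative interaction and 0 with a positive one, where the share of all genes was 3.61% and 4.73%. The median interaction over the 32 genes was -0.59, against 0.0016 over all genes, and 23 of the 32 were negative. The median cold response was 0.49 in wild type and -0.14 in knockout mice. All 13 had the lowest mean in Control and a higher mean in Sirt2-/- than in Control mice, and in 8 of them every CE mouse was above every Control mouse. CE and Control did not overlap in 3.04% of all genes, both directions counted. A negative interaction, by which the 13 were chosen, favours both CE and Sirt2-/- above Control. Control had the lowest mean in 462 of all 564 genes with a negative interaction at an unadjusted p under 0.05. In 0 of the 13 were Sirt2-/- and Sirt2-/-/CE mice apart. Here and for the lists that follow, a gene is said to pass as positive or negative where its unadjusted interaction p was under 0.05 with that sign. The shares of all genes that passed, 4.73% as positive and 3.61% as negative, are the background for each of these counts.

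Hspa5 (chromosome 2 from 34771970 to 34777547) encodes BiP, the main chaperone of the ER lumen. It was at 575, 654, 425, 715 and 538 CPM in Control, 849, 1084, 852, 866 and 1027 CPM in CE, 1840, 1555, 468, 1213 and 1861 CPM in Sirt2-/-, and 1595, 1373, 1019, 788 and 858 CPM in Sirt2-/-/CE mice. Every CE mouse was above every Control mouse, 4 of 5 Sirt2-/- mice were above the whole CE group, and Sirt2-/- mouse 13 was within the Control range. The log2 fold change with cold was 0.69 in wild type and -0.30 in knockout mice, an interaction of -0.99 ± 0.39 (SE, 95% interval -1.80 to -0.17) with an unadjusted p of 0.0198 by edgeR. Hyou1, a larger chaperone that recharges BiP, was at 119, 137, 44.8, 169 and 99 CPM in Control, 230, 265, 210, 223 and 297 CPM in CE, 480, 451, 105, 258 and 427 CPM in Sirt2-/-, and 303, 410, 258, 190 and 205 CPM in Sirt2-/-/CE mice. Every CE mouse was again above every Control mouse, 3 of 5 Sirt2-/- mice were above the whole CE group, and Sirt2-/- mouse 13 was within the Control range. Sdf2l1, a cofactor of BiP, had group means of 18 ± 9.2, 49.3 ± 10.2, 62.6 ± 28.5 and 50.3 ± 23.5 CPM (SD) in Control, CE, Sirt2-/- and Sirt2-/-/CE mice, and its wild type groups did not overlap.

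The interaction was -1.15 ± 0.34 (SE) for the disulfide isomerase Pdia4, -1.77 ± 0.54 for Sdf2l1 and -1.44 ± 0.49 for Hyou1. It was -0.88 ± 0.32 for Hsp90b1, the ER form of the Hsp90 chaperones, and -0.90 ± 0.29 for Calr, which folds glycoproteins. The co-chaperones Dnajc3 (-0.87) and Dnajb11 (-0.86), the isomerase Pdia3 (-0.62), Creld2 (-1.62), the ubiquitin ligase Syvn1 (-1.28) and the transcription factor Atf5 (-1.17) made up the rest with Derl3. Derl3, a channel component for the export of misfolded proteins, had the lowest unadjusted p of the list (0.00121 by edgeR), an interaction of -4.18 ± 1.11 (SE) and low counts. It was at 0.315, 1.01, 1.46, 1.94 and 1.3 CPM in Control and 2.32, 2.23, 11, 20.7 and 1.12 CPM in CE mice, and at 14.9, 12, 2.65, 1.42 and 1 CPM in Sirt2-/- and 0.991 to 3.14 CPM in Sirt2-/-/CE mice, so that 2 CE and 2 Sirt2-/- mice carried its high values. Unlike Atf5, the transcription factors Xbp1, Atf4 and Ddit3 did not pass. Their interactions were 0.26, 0.10 and -0.79, and the interaction was 0.00 and 0.17 for the response genes Dnajb9 and Herpud1, with unadjusted p-values of 0.15 to 0.998 by edgeR. These 5 were chosen after their values were seen.

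The mean centred log2 level of the 32 ER stress genes was -0.56, -0.26, -0.44, -0.17 and -0.29 in Control mice and -0.08, 0.05, 0.25, 0.21 and 0.24 in CE mice, without overlap. In Sirt2-/- mice it was 0.57, 0.45, -0.35, -0.10 and 0.20, and in Sirt2-/-/CE mice 0.29, 0.24, 0.03, -0.08 and -0.19. Sirt2-/- mouse 13 was as low as the Control mice, and the knockout groups overlapped over most of their range. The count of 13 was 10 to 16 when any 1 mouse was left out and 13 to 19 under the other tools, scalings and filters, and it was 14 with the clock score as a covariate, 16 after removal of the trend with gene length and 15 without either pair of mice that stood apart (Sirt2-/- 14 and 15, Sirt2-/-/CE 16 and 20). The direction of the list median was negative in each of these fits. Heat shock genes of the cytosol did not show a like count: of 18, 1 passed as negative (Hsp90aa1, -1.16) and 1 as positive (Rbm3, 0.98). Rbm3, a gene of cold-shock RNA binding protein, had a negative cold response in both genotypes and its highest mean in Control mice. Of all genes, 3.61% passed as negative and 4.73% as positive. Of 31 proteasome subunits 3 passed as negative (Psmd1 -0.53, Psmd2 -0.38 and Psmc6 -0.35) and 0 as positive, and that count was 12 without Sirt2-/-/CE mouse 16 and was 5 without Control mouse 4 and 6 without Sirt2-/- mouse 13.

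**Figure D3:**
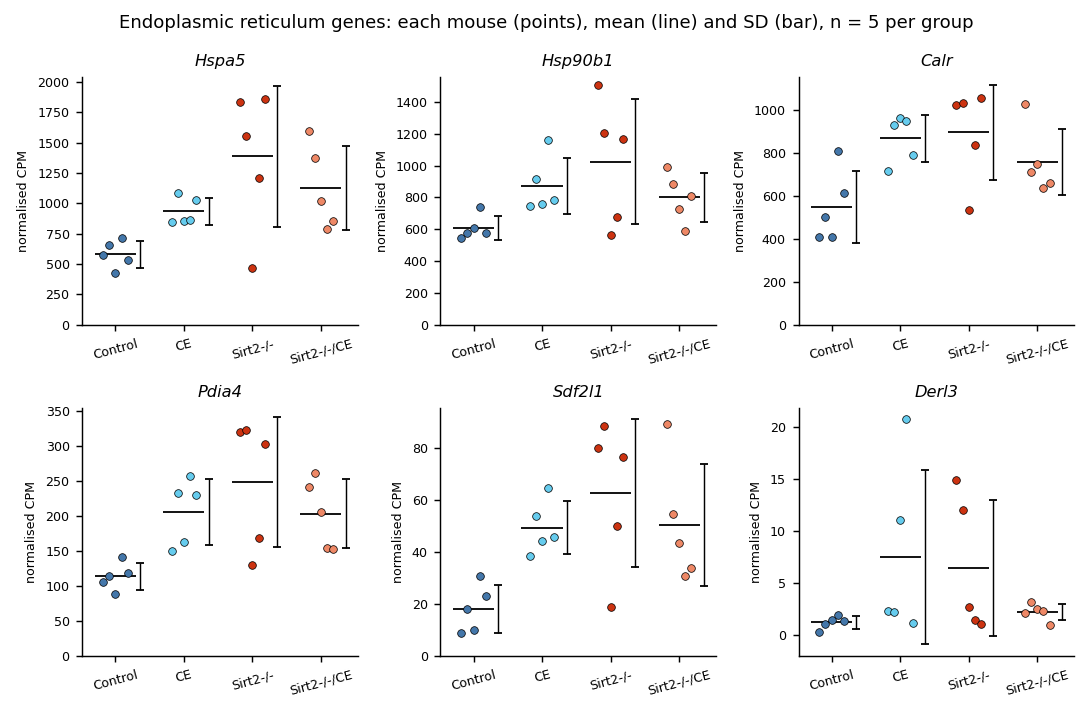
CPM of 6 ER genes in each mouse (points) with the group mean (line) and SD (bar beside it), 5 mice per group. In Hspa5, Hsp90b1, Pdia4 and Sdf2l1 all 5 CE mice lie above all 5 Control mice, and the Sirt2-/- mice are spread widely with mouse 13 low.

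The promoters of these ER genes are shown because 7 of the 12 negative members with a promoter entry in RefSeq share a sequence motif, the ER stress element, which reads CCAAT, then 9 bases of any kind, then CCACG. It is known as a binding site of Atf6 together with the factor NF-Y. The window searched ran from 250 bases before to 50 bases after each gene's start, on both strands, so that the motif may also appear as CGTGG, 9 bases and ATTGG. The motif was in 37 of 27025 promoters (0.137%), in 19 of 10424 promoters of tested genes (0.182%) and in 9 of the 28 promoters of the ER stress list. Capitals mark the fixed letters of each match, and each stretch is given 5′ to 3′ on the strand of the gene in GRCm38.p6.
Hspa5, chr2:34771840-34772089: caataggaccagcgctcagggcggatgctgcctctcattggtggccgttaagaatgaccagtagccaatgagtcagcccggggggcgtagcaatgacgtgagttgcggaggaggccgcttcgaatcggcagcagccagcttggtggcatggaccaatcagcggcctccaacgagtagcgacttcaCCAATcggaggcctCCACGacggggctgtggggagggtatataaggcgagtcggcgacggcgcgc
Derl3, chr10:75893217-75893285: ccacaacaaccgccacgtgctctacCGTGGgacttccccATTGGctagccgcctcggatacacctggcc
Hsp90b1, chr10:86705508-86705681: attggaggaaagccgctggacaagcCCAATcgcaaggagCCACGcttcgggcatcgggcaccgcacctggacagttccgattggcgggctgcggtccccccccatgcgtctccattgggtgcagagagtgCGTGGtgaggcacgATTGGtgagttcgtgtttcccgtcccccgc
Calr, chr8:84847050-84847118: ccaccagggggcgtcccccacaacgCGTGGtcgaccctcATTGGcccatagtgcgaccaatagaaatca
Dnajc3, chr14:118937802-118937870: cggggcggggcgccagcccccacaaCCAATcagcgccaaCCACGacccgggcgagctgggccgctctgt
Creld2, chr15:88819495-88819563: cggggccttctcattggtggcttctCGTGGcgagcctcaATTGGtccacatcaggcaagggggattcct
Syvn1, chr19:6046507-6046575: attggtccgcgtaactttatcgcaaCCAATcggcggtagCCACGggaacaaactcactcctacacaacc

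The match lay 46 bases before the RefSeq start of Hspa5, counted from its near end. It lay 25 bases before that of Syvn1, where it was nearest among these 7 genes. The span of Hspa5 given above is from GENCODE and begins before this match. Hsp90b1 held 2 matches, 1 on each strand, and the others held 1 each. Among the 16 other ER stress genes with a promoter entry, 2 held the motif, Canx (interaction -0.37, unadjusted p 0.0953 by edgeR) and Pdia6 (-0.56, unadjusted p 0.0532 by edgeR). Of all 19 tested genes with the motif, 9 had a negative interaction at an unadjusted p under 0.05 and 1 a positive one, where 3.61% and 4.73% of all genes did. The 10 motif genes outside the ER stress list had 5 interactions of each sign. The 9 were the 7 above with Acnat2 and Xlr3a (-2.60), and the positive one was Acacb, which makes malonyl coenzyme A. The match of Acnat2, the named negative gene with the lowest p, is given with the fixed letters in capitals.
Acnat2, chr4:49408192-49408260: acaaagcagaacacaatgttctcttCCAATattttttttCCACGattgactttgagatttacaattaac

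Genes of fatty acid synthesis and of carbohydrate use had positive interactions in a part of their lists, with the lowest mean in Sirt2-/- mice for many of them. The liver makes fatty acids from glucose through the transcription factors Srebf1, which responds to insulin, and ChREBP (Mlxipl), which responds to sugar phosphates. Of 25 genes of fatty acid synthesis, 9 passed an unadjusted p of 0.05 as positive and 0 as negative, where 4.73% and 3.61% of all genes did. The median interaction was 0.66, and the median cold response was -0.17 in wild type and 0.51 in knockout mice. Scd1 (chromosome 19 from 44394455 to 44407879), the desaturase that makes oleate, was at 6198, 6544, 10069, 2555 and 3518 CPM in Control, 2402, 3174, 1096, 3445 and 6472 CPM in CE, 1468, 795, 636, 119 and 618 CPM in Sirt2-/-, and 1076, 1831, 3343, 5124 and 3962 CPM in Sirt2-/-/CE mice. The wild type groups overlapped, and of the knockout groups 4 of 5 Sirt2-/-/CE mice were above all Sirt2-/- mice. Its interaction was 2.88 ± 0.77 (SE), with an unadjusted p of 0.00134 by edgeR, from a log2 fold change of -0.80 in wild type and 2.08 in knockout mice. Acss2, which makes acetyl coenzyme A from acetate, had group means of 186 ± 18, 147 ± 60.2, 65.1 ± 21.2 and 121 ± 43.6 CPM (SD) in Control, CE, Sirt2-/- and Sirt2-/-/CE mice and an interaction of 1.24 ± 0.39 (SE). The others were Acacb (1.23), Fasn (1.65), Acly (1.11), Me1 (0.60), Fads1 (0.89), Thrsp (2.59) and Pnpla3 (3.60). Without Sirt2-/-/CE mouse 20 the interactions of Pnpla3, Fasn and Acly were 0.73, 1.06 and 0.72.

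In all 9 of these genes of fatty acid synthesis the Sirt2-/- group had the lowest mean. A positive interaction, by which they were chosen, favours that order, and 472 of all 739 genes that passed as positive had it. The knockout groups were apart in 1 of the 9, Me1, the malic enzyme that supplies NADPH. The count of 9 was 3 without Sirt2-/-/CE mouse 20, 4 without CE mouse 9, 5 without CE mouse 8 and 4 with the clock score as a covariate. It was 3 without both Sirt2-/- mice 14 and 15 and 3 without both Sirt2-/-/CE mice 16 and 20. Sirt2-/-/CE mouse 20 held the highest Thrsp level, 2120 CPM, and the highest Pnpla3 level, 9.76 CPM, where no other mouse was above 1204 and 1.65 CPM. Of 16 genes of the pentose phosphate pathway and of ChREBP targets, 6 passed as positive and 0 as negative, with a median of 0.48, and 3 passed without both Sirt2-/-/CE mice 16 and 20. Pklr, the liver pyruvate kinase, was at 331, 404, 144, 219 and 171 CPM in Control and 134, 134, 65.8, 97.9 and 113 CPM in CE mice, and at 85.6 to 137 CPM in Sirt2-/- and 69.9 to 283 CPM in Sirt2-/-/CE mice. Its wild type groups were apart and its knockout groups overlapped, and the interaction was 1.62 ± 0.46 (SE). Pklr shares 22.0% of its exon bases with Hcn3 and Txnip 19.4% with Gm15441 on the other strand, so that reads of these pairs may be mixed. Txnip, an inhibitor of thioredoxin that glucose induces, was at 109, 112, 352, 32.6 and 47.3 CPM in Control, 16.6 to 38.9 CPM in CE, 45.3 to 62 CPM in Sirt2-/- and 38.2 to 46 CPM in Sirt2-/-/CE mice. Its interaction of 2.06 ± 0.60 (SE) was 1.28 to 2.32 when any 1 mouse was left out. The glucose transporter Slc2a2 (0.96), Tkt (0.69) and Khk (0.76, and 0.47 without Sirt2-/-/CE mouse 20) were the others beside Thrsp. Mlxipl itself was at 0.14 (unadjusted p 0.572 by edgeR).

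Of 26 genes of glycolysis 4 passed as positive and 0 as negative, namely Ldhb (1.88), Pklr, Gckr (0.49) and Aldoc (1.42), with a median of 0.18. The median was -0.05 with voom and -0.16 without both Sirt2-/-/CE mice 16 and 20. Of 26 genes of cholesterol synthesis, 24 had a positive interaction with a median of 0.65, and 4 passed an unadjusted p of 0.05, Sc5d (1.14), Pmvk (1.45), Acat2 (0.61) and Tm7sf2 (0.85). The median interaction of that list was 0.19 without both Sirt2-/- mice 14 and 15, whose list means of -1.92 and -1.26 were the lowest of the 20 mice. Its count was 7 without Control mouse 3, 8 without Sirt2-/- mouse 11 and 7 without Sirt2-/- mouse 12. Of 44 genes of fatty acid oxidation and ketone synthesis, 5 passed as positive (Fabp1 1.56, Echs1 0.64, Acaa1b 1.20, Etfa 0.38 and Acaa2 0.52) and 2 as negative (Cyp4a31 -1.33 and Cyp4a14 -1.65). Fabp1, which carries fatty acids in the cytosol, was at 1747 to 3349 CPM in Control, 925 to 1842 CPM in CE, 378 to 2302 CPM in Sirt2-/- and 1857 to 3415 CPM in Sirt2-/-/CE mice, with Sirt2-/- mice 14 and 15 at 637 and 378. The count of 5 was 3 without any of Control 2, Control 3, CE 9, Sirt2-/- 15, Sirt2-/-/CE 16 or Sirt2-/-/CE 20 and 8 without Control 4 or Sirt2-/-/CE 18.

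**Figure D4:**
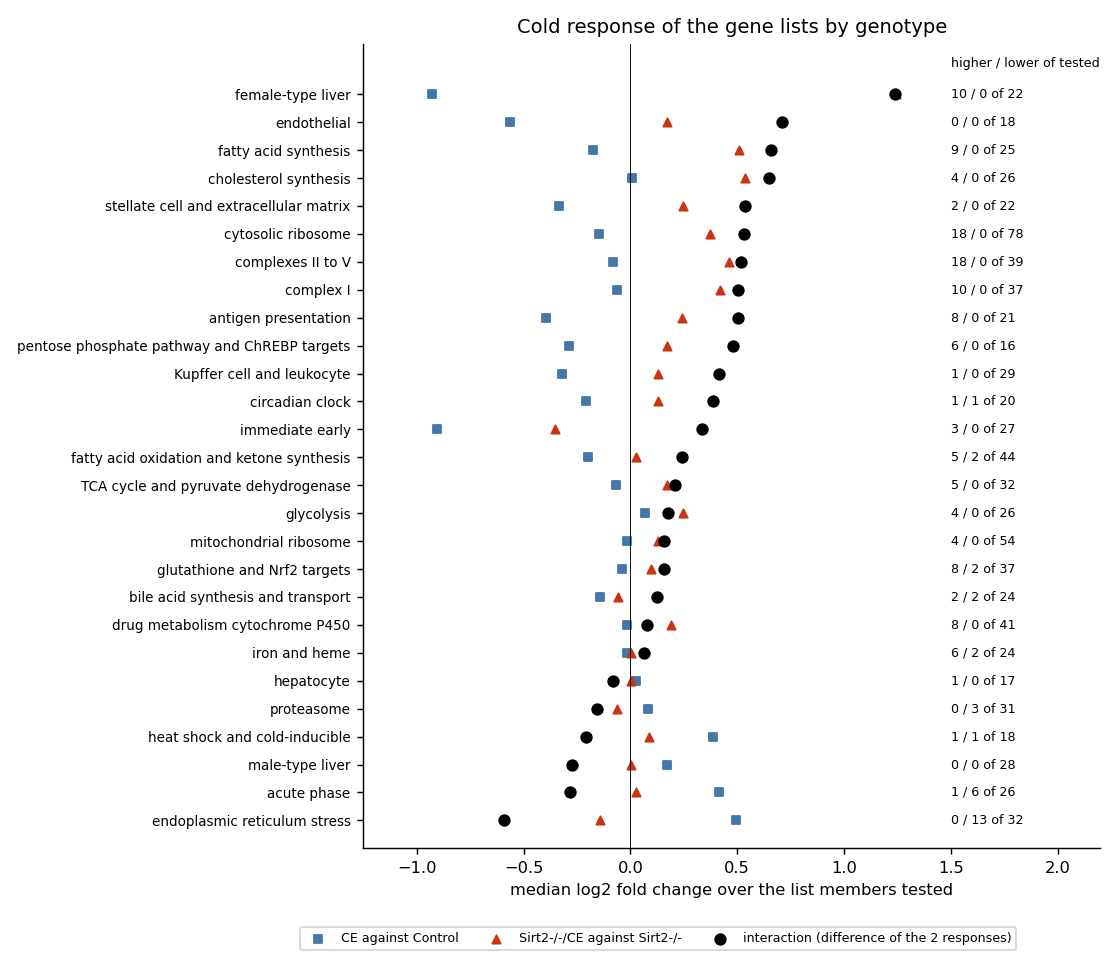
Median log2 fold change over the tested members of 27 gene lists: cold in wild type mice (squares), cold in knockout mice (triangles) and the interaction (circles), with the numbers of members at an unadjusted p under 0.05 (higher, then lower, of those tested) at the right. The ER stress list has the lowest median interaction (-0.59) and the female-type list the highest (1.24).

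The nuclear subunits of the respiratory chain and the proteins of the cytosolic ribosome had small positive interactions that rested on few libraries. The respiratory chain of the mitochondrial inner membrane passes electrons through complexes I to IV and uses the proton gradient at complex V to make ATP. Of 37 subunits of complex I, 37 had a positive sign and 10 passed an unadjusted p of 0.05, with a median interaction of 0.50. Of 39 subunits of complexes II to V, 39 had a positive sign and 18 passed, with a median of 0.52, and of 78 proteins of the cytosolic ribosome, 78 had a positive sign and 18 passed, with a median of 0.53. None of these genes was negative at that threshold, and 0 passed after adjustment. Atp5k, a small subunit of the ATP synthase, had the lowest p, with 14.5, 11.5, 9.84, 11.4 and 14.3 CPM in Control, 10.7, 8.22, 9.81, 11.3 and 9.82 CPM in CE, 8.58, 9.18, 8.04, 9.27 and 7.41 CPM in Sirt2-/-, and 18.9, 8.29, 12.3, 14.8 and 14.3 CPM in Sirt2-/-/CE mice. Sirt2-/- mice had the lowest mean and 4 of 5 Sirt2-/-/CE mice were above all of them, and the interaction was 0.99 ± 0.25 (SE), with an unadjusted p of 0.000735 by edgeR. Ndufc2 of complex I was at 0.95 ± 0.31 (SE), Uqcrb of complex III at 0.79 ± 0.28 and Cox7b of complex IV at 0.69 ± 0.25, and Rps29 of the small ribosomal subunit was at 0.93 ± 0.29.

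The mean centred log2 level of complexes II to V was 0.81 in Sirt2-/-/CE mouse 16 and 0.46 in mouse 20, against -0.23, -0.21 and -0.02 in mice 17, 18 and 19 of that group. It was -0.02 to 0.21 in Control, -0.20 to 0.13 in CE and -0.54 to 0.01 in Sirt2-/- mice. The level of the cytosolic ribosome list was 1.00 and 0.39 in Sirt2-/-/CE mice 16 and 20, and -0.40 to -0.13 in the other 3 mice of the group. These mice, with Sirt2-/- mouse 14, had the highest scores of short over long genes. In mouse 14 the levels of complexes II to V, complex I and the cytosolic ribosome were 0.01, 0.08 and 0.23, each the highest of its group. In the other Sirt2-/- mice they were -0.54 to -0.13, -0.50 to -0.09 and -0.51 to -0.03. Without both mice 16 and 20 the median interaction was 0.09 for complex I, 0.13 for complexes II to V and 0.05 for the ribosome, with 0, 1 and 1 genes left at an unadjusted p under 0.05. After removal of each library's trend with gene length, the medians were 0.35, 0.37 and 0.42, with 12, 18 and 18 genes. With the clock score as a covariate 2, 4 and 3 genes passed, and with voom 3, 7 and 8. Over all genes, the median interaction was 0.15 in the shortest 20% and -0.06 in the longest 20% of genes by exon length, and the part of gene length in these lists was not tested further. Without Sirt2-/-/CE mouse 16 alone, 2 subunits of complex I, 5 of complexes II to V and 5 ribosomal genes passed, and without Sirt2-/-/CE mouse 20 alone, 3, 9 and 10 passed.

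Other single mice moved these counts as well. For complex I the count was 3 without Control 5, CE 9 or Sirt2-/- 15, 4 without Control 4, 5 without CE 6, CE 10 or Sirt2-/- 12, 16 without Control 3, 20 without Sirt2-/-/CE 17 and 18 without Sirt2-/-/CE 18. For complexes II to V it was 10 without Control 5 or CE 9, 7 without Sirt2-/- 15 and 28 without Sirt2-/-/CE 18. For the cytosolic ribosome it was 9 without Control 1, 11 without Control 5 or CE 9, 10 without CE 10 or Sirt2-/- 12, 6 without Sirt2-/- 15, 39 without Sirt2-/- 14, 28 without Sirt2-/-/CE 17 and 45 without Sirt2-/-/CE 18. The 13 genes of the mitochondrial genome, which code for subunits of the same complexes, had a median interaction of 0.10 with 7 of positive sign and 0 past the threshold. Of 54 mitochondrial ribosomal proteins 4 passed as positive, where 4.73% of all genes did, with Mrpl23 (0.95) first, and the median was 0.16. It was -0.13 without both Sirt2-/-/CE mice 16 and 20. Their count was 1 without Control 5, Sirt2-/- 15 or Sirt2-/-/CE 16 and 2 without CE 9, CE 10, Sirt2-/- 12 or Sirt2-/-/CE 20. Of 32 genes of the TCA cycle and pyruvate dehydrogenase 5 passed as positive, namely Pdk1, Idh3b (0.43), Dlat (0.50), Suclg1 (0.53, and 0.34 without Sirt2-/-/CE 16) and Sdhb (0.57), with a median of 0.21, and 2 or 3 passed without any of Control 2, Control 3, Control 5, CE 6, CE 8, CE 9, Sirt2-/- 15 or Sirt2-/-/CE 20.

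**Figure D5:**
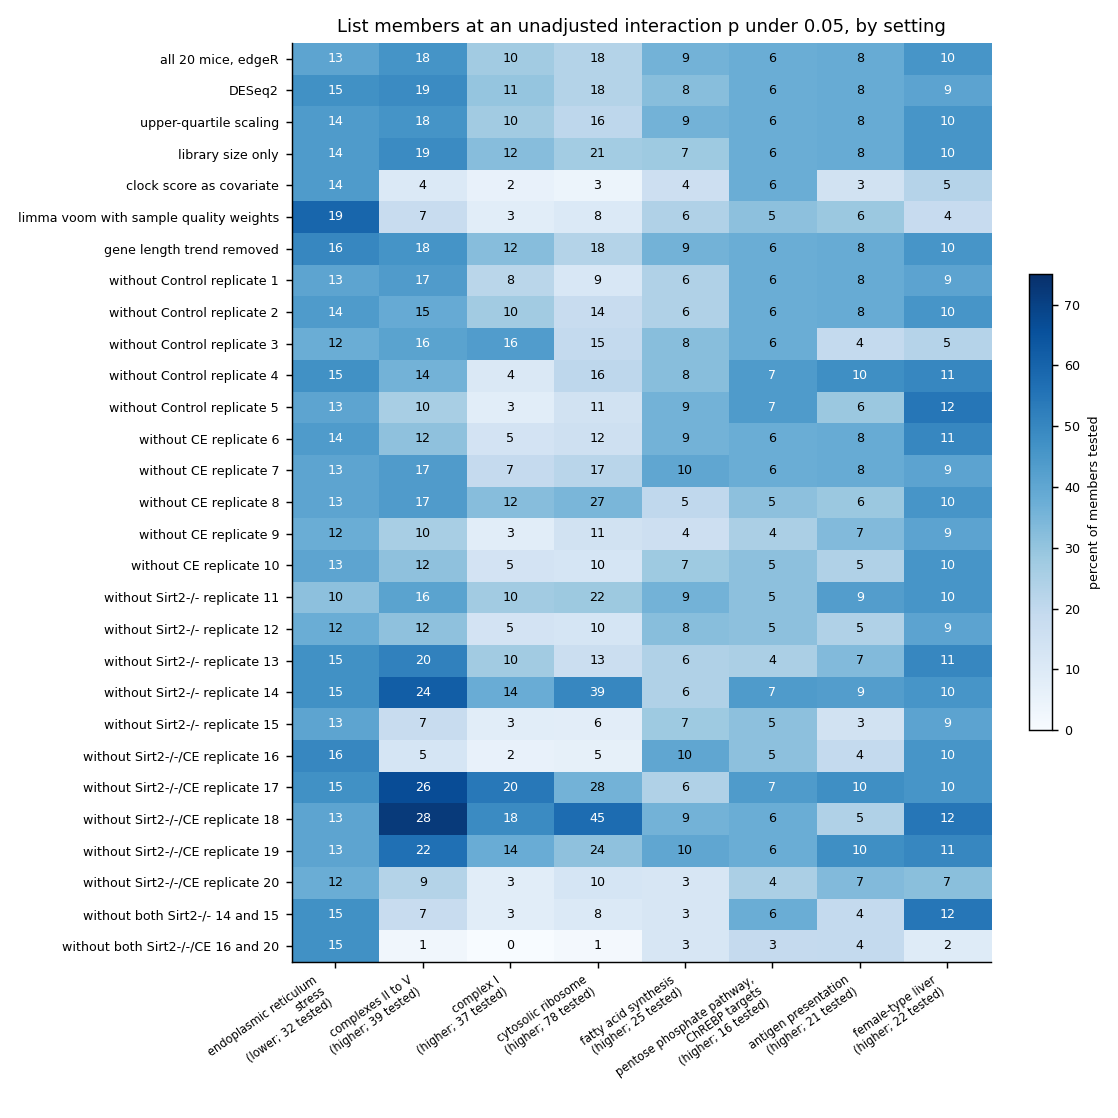
Number of members with an unadjusted interaction p under 0.05 in 8 gene lists (columns) with all 20 mice, under 6 alternatives, with each mouse left out and without 2 pairs of mice (rows), with shading for the percent of members tested. The ER stress column stays between 10 and 19, whereas the columns of complexes I to V and of the ribosome run from 0 to 45.

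Hamp and other genes of iron handling had positive interactions, and several acute phase genes negative ones, at an unadjusted p under 0.05. Hepcidin, the product of Hamp, is the liver hormone that blocks iron export from cells, and Bmp6, a signal from endothelial cells, raises Hamp together with Id1 and Smad7. Hamp (chromosome 7 from 30942368 to 30944032) was at 819, 457, 1056, 332 and 331 CPM in Control, 231, 181, 150, 33.1 and 82.8 CPM in CE, 169, 117, 45, 686 and 256 CPM in Sirt2-/-, and 615, 138, 171, 398 and 355 CPM in Sirt2-/-/CE mice. Every CE mouse was below every Control mouse, and the knockout groups overlapped over nearly their whole range. The log2 fold change of Hamp was -2.14 in wild type and 0.40 in knockout mice, an interaction of 2.54 ± 0.86 (SE) with an unadjusted p of 0.00764 by edgeR. Bmp6 was at 0.888 to 5.35 CPM in Control, 0.68 to 1.45 CPM in CE, 2.2 to 3.88 CPM in Sirt2-/- and 2.04 to 3.31 CPM in Sirt2-/-/CE mice, with an interaction of 1.44 ± 0.48 (SE). Id1 (2.37), Smad7 (1.04), Hamp2 (2.74) and the heme enzyme Alad (0.80) were the others that passed as positive among 24 genes of iron and heme. Of the 50-base words of Hamp, 16.6% occur in other genes, mostly Hamp2. The iron importer Slc11a2 (-0.75) and the heme enzyme Uros (-0.65) passed as negative, and the median of the list was 0.06. Without Control mouse 3 the interaction of Id1 was 1.47.

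The stretch of the Hamp promoter is shown because 2 motifs of its known regulators lie in it, a BMP response element (GGCGCC) and a STAT site (TTCTTGGAA), both in capitals and on the strand of the gene in GRCm38.p6. The window and strands searched were those given above, and the motifs were in 13.4% and 0.488% of all 27025 promoters. They were in 23.4% and 0.307% of the 10424 promoters of tested genes.
Hamp, chr7:30944093-30944163: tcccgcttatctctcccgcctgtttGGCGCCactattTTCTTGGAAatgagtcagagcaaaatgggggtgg

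Acute phase genes encode plasma proteins that the liver raises in inflammation. Of 26 tested, 6 passed as negative and 1 as positive (Hamp, which belongs to this list too), with a median of -0.28. Lbp, which binds bacterial lipopolysaccharide, was at 42.4, 40.7, 94.6, 63.5 and 40.2 CPM in Control and 69.3, 91.7, 264, 113 and 154 CPM in CE mice, and at 57.2 to 120 CPM in Sirt2-/- and 56.9 to 90.8 CPM in Sirt2-/-/CE mice. Control mouse 3 was high and within the CE range, the knockout groups overlapped, and the interaction was -1.55 ± 0.44 (SE). The orosomucoid gene Orm2 was at 7.59 to 44.3 CPM in Control mice, 21.5, 96.8, 111, 67.9 and 516 CPM in CE mice and 6.52 to 48.4 CPM in the knockout mice, with an interaction of -2.95 ± 0.99 (SE), and 22.7% of its 50-base words occur in other genes, mostly Orm1. Without CE mouse 10 the interaction of Orm2 was -1.82, and without CE mouse 8 that of Hp was -1.06. Hp, the haptoglobin gene (-1.60), Crp (-0.68), Itih3 (-0.75) and Cp (-0.60) were the others. Crp was at 229 to 407 CPM in Control and 375 to 576 CPM in CE mice, and at 241 to 343 CPM in Sirt2-/- and 248 to 408 CPM in Sirt2-/-/CE mice. Control mouse 3 had a list mean of 1.57 against -0.56 to -0.03 in the other Control mice, and without it 13 genes passed as negative and the median was -0.80, while without CE mouse 8 the count was 3. The serum amyloid gene Saa1, chosen after its values were seen, had means of 192 and 466 CPM in Control and CE and 19.8 and 25 CPM in Sirt2-/- and Sirt2-/-/CE mice, and an interaction of -0.95 ± 1.30 (SE).

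Genes of antigen presentation had positive interactions in a part of their list. Major histocompatibility complex genes display peptides to T cells, class I in most cells and class II in macrophages, dendritic cells and B cells. Of 21 tested, 8 passed as positive and 0 as negative, with a median of 0.50, namely the class I genes H2-Q7 (0.50), H2-Q4 (0.75) and H2-T23 (0.65), the class II genes H2-Eb1 (1.31), H2-DMa (1.29), H2-Ab1 (1.20) and H2-Aa (1.24), and the immunoproteasome subunit Psmb10 (0.77). H2-Eb1 was at 24.1, 24.6, 46.5, 9.93 and 23.9 CPM in Control, 9.52 to 19 CPM in CE, 5.64 to 16.3 CPM in Sirt2-/- and 8.8 to 22.8 CPM in Sirt2-/-/CE mice. Control mice were highest but for mouse 4, and all other groups overlapped. The count of 8 was 3 without Sirt2-/- mouse 15, 4 without Control 3 or Sirt2-/-/CE 16, 5 without CE 10, Sirt2-/- 12 or Sirt2-/-/CE 18, and 3 with the clock score as a covariate. Class I genes share sequence, and 26.6% of the 50-base words of H2-Q7 occur in other genes.

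The median interactions of the marker genes of Kupffer cells and leukocytes, endothelium and stellate cells were positive, with 3 genes in all past the threshold. The median of 10 cholangiocyte genes was -0.01, with 5 genes of each sign and 0 past the threshold. That median was 0.30 without CE mouse 7. Of 29 genes of Kupffer cells and leukocytes, 26 had a positive interaction with a median of 0.41, and 1 passed (Gzma, with group means of 0.0655 to 0.719 CPM), a share below the 4.73% of all genes. Of 18 endothelial genes, 17 had a positive sign with a median of 0.71, and 0 passed (2 did by DESeq2), and of 22 genes of stellate cells and matrix, 19 had a positive sign with a median of 0.54, and Tagln (1.15) and Lgals1 (1.19) passed. The endothelial count was 9 without Control 4 or CE 9, 4 without Sirt2-/- 11 or 12, and 0 or 1 without any other mouse. The stellate count was 6 without Sirt2-/- 11, 4 without Control 4 or CE 6, 3 without Sirt2-/- 12, and 1 or 2 without any other mouse. Medians with any 1 mouse left out were 0.17 to 0.70 (Kupffer cells and leukocytes), 0.55 to 1.05 (endothelium) and 0.30 to 0.92 (stellate cells). Of 17 hepatocyte genes 1 passed (Apoa1, 0.72, and 0.46 without Sirt2-/-/CE 16), and the median was -0.08. The mean centred log2 level of the endothelial genes was -1.23 in Control mouse 4 and 0.00 to 0.52 in the other Control mice, -1.86 to 0.23 in CE mice, -0.46 to 0.71 in Sirt2-/- mice and 0.26 to 0.85 in Sirt2-/-/CE mice. The levels of the Kupffer cell and leukocyte list ranged from -0.73 to 0.86 in Control, -1.31 to 0.43 in CE, -0.11 to 0.22 in Sirt2-/- and -0.33 to 0.29 in Sirt2-/-/CE mice. The endothelial level of every Sirt2-/-/CE mouse was above that of every CE mouse, whereas the ranges of the Kupffer cell list overlapped between all groups, and the part of these cells in the results for antigen presentation and Bmp6 was not tested.

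Enzymes of glutathione and drug metabolism had positive interactions in a part of their lists. Of 37 genes of glutathione metabolism and Nrf2 targets, 8 passed as positive and 2 as negative, where 4.73% and 3.61% of all genes did. The median was 0.16, with 21 genes of positive and 16 of negative sign. Gstt1, a glutathione transferase of the theta class, was at 225, 198, 236, 169 and 211 CPM in Control, 189, 189, 129, 138 and 192 CPM in CE, 114, 100, 112, 132 and 98.5 CPM in Sirt2-/-, and 261, 153, 142, 153 and 303 CPM in Sirt2-/-/CE mice. All Sirt2-/-/CE mice were above all Sirt2-/- mice, the wild type groups overlapped, and the interaction was 1.18 ± 0.28 (SE), with an unadjusted p of 0.000398 by edgeR. Gstm6 had a like pattern, with 28.2 to 44.8 CPM in Sirt2-/- and 48.3 to 103 CPM in Sirt2-/-/CE mice, and an interaction of 1.28 ± 0.31 (SE). Gsta2 (1.59), Gsta1 (2.52), Gstt2 (1.24), Gsta4 (0.96), Gstm2 (1.20) and Mgst3 (1.32) followed, and Srxn1 (-0.91) and Gsr (-0.35) passed as negative. Gsta1 and Gsta2 share 89.7% and 64.2% of their 50-base words with other genes, so that their values are uncertain. The Nrf2 targets Nqo1 (0.34), Gclc (0.12) and Hmox1 (-0.15), chosen after their values were seen, did not pass. Of 41 cytochromes P450 of drug metabolism 8 passed as positive, with Cyp2c54 (0.97 ± 0.30 SE) first, and the count was 5 without Sirt2-/-/CE mouse 20. Of 24 genes of bile acid synthesis and transport, Akr1d1 (1.00) and Abcg5 (0.99) passed as positive and Cyp39a1 (-2.23) and Baat (-0.39) as negative. Of all genes, 4.73% and 3.61% did. Cyp7a1, the rate-limiting enzyme, was at 0.07 (unadjusted p 0.942 by edgeR). The interaction of Abcg5 was 0.58 without Control mouse 3, and that of Akr1d1 0.65 without Sirt2-/-/CE mouse 20.

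Genes that female mouse livers express more than male ones gave the highest median of the 27 lists, and 2 mice stood far above the others in them. Growth hormone, secreted in pulses in males and steadily in females, sets the sex pattern of these genes. Of 22 tested, 10 passed as positive and 0 as negative, with a median of 1.24. Cyp2a4, a cytochrome P450, was at 334 CPM in Control mouse 3, 827 CPM in Sirt2-/-/CE mouse 20 and between 10.4 and 131 CPM in the others (38.0% of its 50-base words occur in other genes, mostly Cyp2a5), and Cyp2b9 at 120 and 205 CPM and between 0.198 and 56.4 CPM in the others. The mean centred log2 level of the list was 2.23 and 2.96 in these mice and between -1.19 and 0.51 in the others, and that of male-type genes was -1.76 and -2.65 in them and -0.94 to 0.96 in the others. Without Control mouse 3 the count was 5, and without Sirt2-/-/CE mice 16 and 20 it was 2 with a median of 0.67. The interaction of Cyp2a4 was 3.81, and 2.38 without Control mouse 3 or 2.04 without Sirt2-/-/CE mouse 20. Of 28 male-type genes, 0 passed in either direction, and the median was -0.27.

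The clock genes vary over the day and were described because some mice stood apart in them. Of 20 genes, 1 passed as positive (Bhlhe40, 1.41) and 1 as negative (Arntl, -3.31 ± 1.18 SE), where 4.73% and 3.61% of all genes did. The median was 0.39. It was -0.20 with the clock score as a covariate and -0.07 without both Sirt2-/- mice 14 and 15. The score is built from members of this list, so the covariate takes out part of their signal by construction. Arntl, which encodes the activator Bmal1, was at 0.437, 0.851, 0.123, 3.28 and 0.537 CPM in Control, 6.98, 11.9, 0.905, 20.8 and 3.13 CPM in CE, 2.02, 5.13, 1.48, 15.5 and 25.9 CPM in Sirt2-/-, and 8.07, 5.9, 5.37, 15.6 and 7.2 CPM in Sirt2-/-/CE mice. Dbp, a target of that activator that peaks at the other end of the day, was at 71.6 to 99 CPM in Control mice, and at 4.32 CPM in CE mouse 9, 0.325 and 0.359 CPM in Sirt2-/- mice 14 and 15 and 2.46 CPM in Sirt2-/-/CE mouse 19. The wild type groups of Dbp were apart and the knockout groups overlapped, and its interaction was 0.99 ± 1.34 (SE), and 0.37 without Sirt2-/-/CE mouse 18. With the clock score as a covariate, 900 genes in place of 1303 were at an unadjusted p under 0.05, of which 691 were among the 1303, and 0 were called. The time of tissue collection is not given in the sources used here. Of 27 immediate early genes, which respond to handling within minutes, 3 passed as positive, Sgk1 (1.18), Klf2 (1.35) and Klf10 (1.20), and the count was 1 without Control 3, Sirt2-/- 15 or Sirt2-/-/CE 16, 5 without Control 4 or Control 5, and 8 without CE 8. Without Control 3 the interaction of Klf10 was 0.60.

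Among genes of the sirtuin family and NAD supply, Nmnat1 (0.61), Nadsyn1 (0.58), both of which make NAD, and Sirt3 (0.60), the mitochondrial deacetylase, passed as positive among 20, and the median was 0.15. It was -0.06 with voom, -0.03 with the clock score as a covariate and -0.03 without both Sirt2-/- mice 14 and 15. Atp11a, a flippase that moves phospholipids across the plasma membrane, was named by the rule whatever its values. It was at 13.7, 16, 15.4, 19.3 and 11.5 CPM in Control, 14.2, 26.4, 33.6, 33.2 and 26.9 CPM in CE, 7.45, 6.64, 5.14, 5.2 and 9.25 CPM in Sirt2-/-, and 2.33, 8.22, 10.1, 6.88 and 3.7 CPM in Sirt2-/-/CE mice. All knockout mice were below all wild type mice, CE mice were above Control mice but for CE mouse 6, and the knockout groups overlapped. The interaction of Atp11a was -0.93 ± 0.44 (SE, 95% interval -1.84 to -0.02), with an unadjusted p of 0.0459 by edgeR (adjusted p = 0.59). Pkm, which encodes the muscle-type pyruvate kinases including PKM2, was at 161 CPM in CE mouse 6 and 6.5 to 42 CPM in the other 19, and its interaction of -0.40 ± 0.90 (SE) was 1.39 without that mouse. Pkm shares 34.4% of its 50-base words with other genes. The interval of the Pkm interaction, -2.29 to 1.48, spans both directions.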

How the data were processed

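Liver RNA of 20 mice in 4 groups of 5 was sequenced, and each mouse gave its own library. The authors deposited 1 table with, for each gene and mouse, a read count that was not normalized and an FPKM value scaled to gene length and depth. The genome build is mm10 per the submitters' processing notes, and the aligner, the counting tool, its strand setting and its treatment of multiply matching reads are not given in the sources used here. All columns were matched to samples by title, with 0 left over, and 9 lines without a gene were left out. Antisense and overlapping genes cannot be told apart where strand was not used in counting.

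Counts were analysed in R 4.3.3. Genes were kept by edgeR 4.0.16 filterByExpr (minimum count 10, minimum total 15), scaled by TMM and fitted with group as the only term over all 20 libraries, and contrasts were tested two-sided with glmQLFTest and adjusted over 15616 genes (threshold 0.05). The standard error is the log2 fold change divided by the root of F. The fit was tested on simulated data. The study's methods name no model for the sequencing counts. No 2 libraries of a group agreed within sampling noise (lowest chi-square per degree of freedom 55.89). The labels name no batch, and p-values measure the spread between these mice.

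The contrast, 46 gene lists and the alternatives were chosen with earlier results of these data known, so lists were given as counts and medians with no test of their own, and 27 are described. Genes named were Sirt2, Hspa5, Atp11a, Pkm, the clock genes, the 3 members of each described list with the lowest p, and the 12 genes per direction with the lowest unadjusted p among genes whose mean FPKM reached 1 and whose symbol is not a predicted one. Some other list members are given as examples, chosen after their values were seen. One gene that the rule names is not reported here. A list level is the mean over genes of the centred log2 CPM (prior count 2). Alternatives were DESeq2 1.42.0, upper-quartile scaling, scaling by library size alone, a minimum of 10 counts in all libraries, omission of the filter, voom with sample weights from limma 3.58.1, robust dispersion shrinkage, the clock score as a covariate, limma on log2(FPKM + 1), removal of 1 mouse per group and of each mouse in turn. Removal of the gene length trend and of the pairs Sirt2-/- 14 and 15 and Sirt2-/-/CE 16 and 20 was added after the data were seen. Positions are from GENCODE on GRCm38, promoters from RefSeq on GRCm38.p6, and shared sequence was counted as 50-base words of a gene's exons that occur in other genes.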

Additional observations from a re-analysis of the deposited data

Results flagged for a closer look

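In groups of 5 mice, a mouse far from the other 4 by Dixon's criterion (critical value 0.71) was found in 20 of 200 groups examined, where chance flags about 1 in 20 groups. Control mouse 3 stood out for the level of the female-type list (2.23), the acute phase list (1.57), Paox (36.2 CPM), Txnip (352 CPM) and Cyp2a4 (334 CPM). Sirt2-/-/CE mouse 20 stood out for Cyp2a4 (827 CPM), and Sirt2-/-/CE mouse 16 for Calr (1028 CPM) and Sirt2 (27.5 CPM). Control mouse 4 was high for Acnat2 (19.4 CPM) and Arntl (3.28 CPM), Control mouse 1 was high for Rps29 (34.1 CPM), and Control mouse 5 was low for the clock gene list (-0.025). CE mouse 8 was low for Ces1e (54.5 CPM) and high for Serpina7 (458 CPM), CE mouse 10 was high for Orm2 (516 CPM), and CE mouse 6 was high for Pkm (161 CPM). In the knockout, Sirt2-/- mouse 14 was high for Pkm (26.8 CPM), Sirt2-/-/CE mouse 18 for Kif12 (1.99 CPM), and Sirt2-/-/CE mouse 19 was high for Arntl (15.6 CPM) and low for Txnip (38.2 CPM).

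Paox (interaction 1.18) and Car3 (2.40) were noted because every CE mouse was below every Control mouse and every Sirt2-/-/CE mouse above every Sirt2-/- mouse. Their adjusted p-values for the interaction in edgeR's quasi-likelihood test were 0.208 and 0.503.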

How the results depend on the processing

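No paired analysis was possible because the mice are numbered 1 to 20 and no number occurs in more than 1 group. DESeq2 called 41 genes for the interaction, 169 for cold in wild type and 7 for cold in knockout mice, in place of 0, 1 and 0. When any 1 mouse was left out, edgeR called 0 to 2, 0 to 68 and 0 genes, and 68 and 2 both came without Control mouse 4. The unadjusted count of 1303 was 2152 with no filter and 2074 with voom. Over 46 lists, 30 median values moved by more than the spread between mice, and 1 more with 1 mouse left out. Among them were those of complex I (voom 0.22, without Sirt2-/-/CE 16 and 20 0.093), complexes II to V (0.23 and 0.13), the cytosolic ribosome (0.053 without that pair), the clock genes (-0.20 with the clock score), the female-type genes (2.36 with the clock score, 2.92 without Sirt2-/- 14 and 15), glycolysis (-0.046 with voom, -0.16 without Sirt2-/-/CE 16 and 20), the TCA cycle (0.073 and 0.036), the mitochondrial ribosome (-0.13 without that pair), the hepatocyte markers (0.080 without Sirt2-/- 14 and 15, -0.25 without the other pair), the sirtuins (-0.056 with voom, -0.027 with the clock score, -0.032 without Sirt2-/- 14 and 15) and the heat shock genes (-0.73 with voom), and the cause was not tested. Without both Sirt2-/-/CE mice, 505 genes were positive and 663 negative in place of 739 and 564, and with library size only 637 and 642.

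Reversals were found for clock genes and Pkm. Nr1d2, Npas2 and Per3 are part of the clock score, so their values with it as a covariate are no independent check. The sign changed with voom for Npas2 (0.38), Usp2 (-0.088), Per2 (-0.094) and Cry2 (-0.16), with the clock score for Hlf (-0.22), Nr1d2 (-0.15), Npas2 (3.20), Per3 (-0.39), Usp2 (-0.50), Per2 (-0.17) and Cry2 (-0.33), and with 1 mouse of each group left out for Cry2 (-0.018). Without Sirt2-/- 14 and 15 it changed for Hlf (-0.17), Nr1d2 (-0.48), Npas2 (0.92), Usp2 (-0.14) and Cry2 (-0.34), without Sirt2-/-/CE 16 and 20 for Rora (0.15), and with FPKM for Pkm (0.30). With any 1 mouse left out, the ranges were -0.33 to 0.38 for Cry1, -0.053 to 0.39 for Cry2, -0.00021 to 0.33 for Hlf, -0.13 to 0.53 for Nr1d2 and -0.66 to 1.39 for Pkm. The other genes among the 216 refitted in each alternative kept their sign in every fit made. Other list members named in the text, such as Xbp1, Atf4 and Cyp7a1, were not compared across the alternatives. Of the named genes, 21 passed the adjusted threshold with DESeq2, and 2 without Control mouse 4. At 5 mice per group, the 95% interval of an interaction reached 0.79 to each side at the median gene on the log2 scale, so that a missed threshold does not show equal responses.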
